A study of Mus musculus with 4 samples.

Results

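The 10 genes described here make, pack or take back 3 families of neurotransmitter: Th, Ddc, Slc6a3, Slc18a2 and Dbh for the catecholamines, Tph2 and Slc6a4 for serotonin, and Chat, Slc5a7 and Slc18a3 for acetylcholine. They were chosen by symbol, and each matched 1 of the 31053 gene rows of the count tables. The tables held UMI (unique molecular identifier) counts from single-nucleus RNA-seq of brains of 2-month-old female C57/BL6 mice that received no treatment, with 2 WT libraries and 2 Csf1r+/- (HET) libraries, 1 mouse each. The HET mice carried 1 disrupted germline allele of Csf1r, a growth factor receptor that microglia need, so every cell type carried it. A further library per genotype was not used here. The study's limits for nuclei (between 500 and 50000 UMIs, over 200 detected genes, mitochondrial share below 5%) left 52132 nuclei. Values for the 4 libraries are given below in the order WT replicate 1, WT replicate 2, HET replicate 1 and HET replicate 2.

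Tyrosine hydroxylase (Th) makes L-DOPA, the rate-limiting step of catecholamine synthesis, and tryptophan hydroxylase (Tph2) makes 5-hydroxytryptophan, that of serotonin in neurons. Aromatic amino acid decarboxylase (Ddc) turns both into the amine, and the vesicular transporter Slc18a2 packs every monoamine. Dopamine β-hydroxylase (Dbh) turns dopamine into noradrenaline, while Slc6a3 and Slc6a4 take dopamine and serotonin back into the neuron. Choline acetyltransferase (Chat) makes acetylcholine from choline that Slc5a7 takes up, and Slc18a3 packs it. The neurons that use these genes together are few in the brain and sit mostly in small nuclei: dopamine neurons in the midbrain, serotonin neurons in the raphe of the brainstem, and acetylcholine neurons in the basal forebrain, striatum and brainstem.

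The libraries held 16114, 15247, 9589 and 11182 kept nuclei, with 88097109 to 111488169 UMIs each and medians of 5490, 4636, 7454 and 6656 UMIs per nucleus. Between 33 and 68 barcodes were shared by any pair of libraries, 0.344% to 0.465% of the smaller one. The targeted gene did not separate the genotypes over all nuclei. Csf1r stood at 3.04, 6.53, 6.68 and 6.36 CPM (UMIs of a gene scaled to a common total for each library or group of nuclei), and HET differed from WT by 0.54 ± 0.31 (SE) on the log2 scale (adjusted p = 0.9998, edgeR's quasi-likelihood test). In the 1145 nuclei of the microglia-like cluster it was 305, 213, 170 and 220 CPM, a log2 difference of -0.39 ± 0.21 (adjusted p = 0.987). Reads from the 3′ end of 1 allele cannot be told from those of the other. The direction of each genotype contrast below therefore rests on the labels.

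On mm10 the acetylcholine genes Chat and Slc18a3 share 1 locus. Slc18a3 (chr14:32462438-32464850, minus strand), a gene with 1 exon, lies inside an intron of the longer Chat gene (chr14:32408203-32465989) on the same strand. Th spans chr7:142892752-142931128 (minus), Tph2 chr10:115078641-115185022 (minus), Slc6a3 chr13:73536747-73578672 (plus) and Slc6a4 chr11:76998603-77032340 (plus). Ddc (chr11:11814101-11898144, minus) overlaps the gene 1700042O10Rik on the other strand, for which 1189 UMIs were counted. Gm2990 (47 UMIs), Gm29261 (25 UMIs) and Gm12343 (0 UMIs) overlap Chat, Slc18a2 and Slc6a4 in the same way. Whether the counting used strand is not stated in the sources used here, so UMIs of these genes and of their antisense partners are uncertain.

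The promoters of the enzyme and transporter genes whose co-detection marks dopamine and serotonin nuclei are shown for their sequence. Each is the stretch of 250 bases before the transcription start site in RefSeq (GRCm38.p6), 5′ to 3′ on the gene's own strand, with capitals for matches to the motifs searched: chr7:142899996-142900245 (minus) for Th, chr13:73536497-73536746 (plus) for Slc6a3, chr10:115185023-115185272 (minus) for Tph2 and chr11:76998347-76998596 (plus) for Slc6a4.
Th: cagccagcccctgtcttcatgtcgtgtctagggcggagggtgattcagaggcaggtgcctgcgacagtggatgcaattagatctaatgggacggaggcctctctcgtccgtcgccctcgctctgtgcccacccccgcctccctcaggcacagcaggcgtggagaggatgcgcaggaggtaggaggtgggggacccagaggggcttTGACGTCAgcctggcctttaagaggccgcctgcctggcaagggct
Slc6a3: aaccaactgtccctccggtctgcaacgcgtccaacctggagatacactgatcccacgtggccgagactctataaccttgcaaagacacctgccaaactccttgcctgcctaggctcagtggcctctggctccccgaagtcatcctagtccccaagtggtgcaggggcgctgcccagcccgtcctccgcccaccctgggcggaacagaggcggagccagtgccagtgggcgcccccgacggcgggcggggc
Tph2: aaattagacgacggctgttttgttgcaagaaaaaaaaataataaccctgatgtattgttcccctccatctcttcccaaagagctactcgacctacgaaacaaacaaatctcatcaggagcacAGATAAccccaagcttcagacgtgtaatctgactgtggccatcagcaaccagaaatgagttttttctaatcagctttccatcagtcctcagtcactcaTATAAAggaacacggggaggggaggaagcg
Slc6a4: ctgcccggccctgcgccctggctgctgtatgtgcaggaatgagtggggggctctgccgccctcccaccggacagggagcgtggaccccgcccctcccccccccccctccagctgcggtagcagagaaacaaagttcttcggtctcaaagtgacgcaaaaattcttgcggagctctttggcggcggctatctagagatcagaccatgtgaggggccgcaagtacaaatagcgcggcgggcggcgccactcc

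The Th promoter holds the cAMP response element TGACGTCA, 45 to 38 bases before the start site, which 1.55% of 32851 mouse promoters of the same length hold on either strand. The Tph2 promoter holds TATAAA, 30 to 25 bases before the start site (12.4% of promoters), and AGATAA, the letters searched for GATA factors, 128 to 123 bases before it (9.99%). Over the 10 genes, TATAAA also matched in Ddc and Slc5a7, AGATAA in Slc18a2, and the nuclear receptor motif AAAGGTCA in Ddc (1.34% of promoters). The homeobox motif TAATTA (4.84%) matched in none of the 10. No motif overlapped another in the windows printed, and the Slc6a3 and Slc6a4 windows hold none of those searched.

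Levels over all kept nuclei were low, since few nuclei carried a transcript. For the catecholamine enzymes, Th had 94, 95, 95 and 71 UMIs in the 4 libraries (0.843, 1.08, 1.08 and 0.795 CPM). Ddc had 770, 493, 327 and 382 UMIs (6.91, 5.60, 3.71 and 4.28 CPM), and both HET libraries were below both WT libraries. Dbh had 3, 4, 2 and 5 UMIs, at or near the floor of 3 counts in each library. The transporter Slc6a3 had 85, 66, 55 and 76 UMIs (0.762, 0.749, 0.624 and 0.851 CPM), and Slc18a2 had 1057, 1211, 776 and 1373 UMIs (9.48, 13.7, 8.80 and 15.4 CPM). The genotypes overlapped for Th, Slc6a3, Slc18a2 and Dbh.

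Both serotonin genes were lower in the HET libraries. Tph2 had 501, 247, 167 and 141 UMIs (4.49, 2.80, 1.89 and 1.58 CPM), and its serotonin transporter partner Slc6a4 had 166, 101, 42 and 38 UMIs (1.49, 1.15, 0.476 and 0.425 CPM). The mean of Slc6a4 was 1.32 ± 0.242 CPM (SD, n = 2) in WT and 0.451 ± 0.0361 CPM (n = 2) in HET. For the acetylcholine genes, Chat had 66, 113, 71 and 65 UMIs (0.592, 1.28, 0.805 and 0.728 CPM) and Slc5a7 had 108, 170, 127 and 85 UMIs (0.969, 1.93, 1.44 and 0.952 CPM). Slc18a3 had 5, 11, 5 and 2 UMIs. The genotypes overlapped for all 3 acetylcholine genes.

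**Figure D1:**
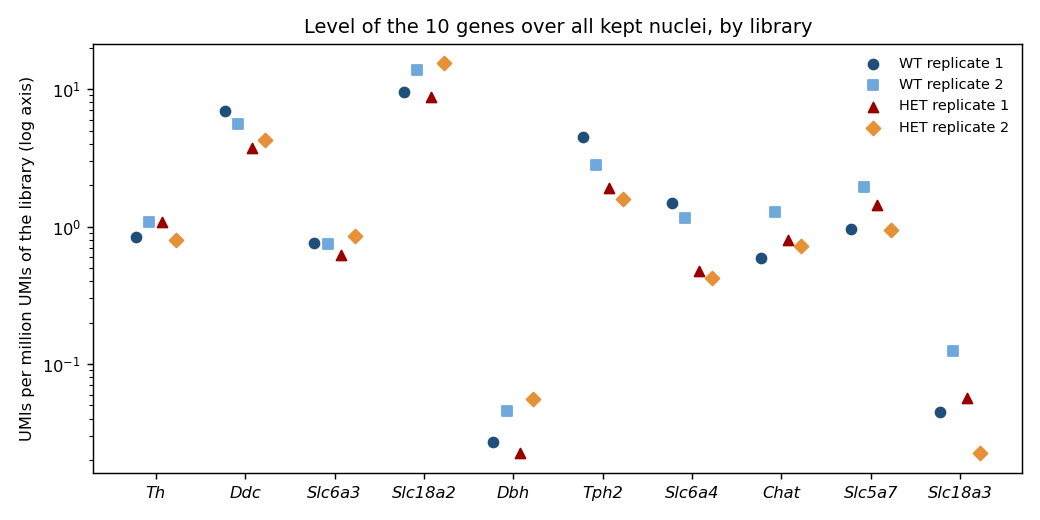
Level of each of the 10 genes over all kept nuclei in the 4 libraries, in CPM on a log axis, with WT and HET libraries as separate points. Ddc, Tph2 and Slc6a4 are the genes whose HET points both sit below both WT points.

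No difference between genotypes passed the test that corrects for all genes. Of 23027 genes tested with edgeR's quasi-likelihood test, 0 (0%) passed the Benjamini-Hochberg adjusted threshold of 0.05, 597 had an unadjusted p under 0.05, and DESeq2 also called 0. Slc6a4 differed by a log2 fold change of -1.49 ± 0.33 (SE, adjusted p = 0.9998, edgeR). Tph2 differed by -1.03 ± 0.32 and Ddc by -0.59 ± 0.22, with the same adjusted p. Without WT replicate 1, Tph2 differed by -0.55 and Ddc by -0.35, and over all replicates left out in turn Tph2 ran from -1.37 to -0.55 and Ddc from -0.79 to -0.35. The log2 fold changes of the other 7 genes ran from -0.96 (Slc18a3) to 0.21 (Dbh). Of the 10 genes, 3 had HET and WT libraries that did not overlap, all of them lower in HET, beside 27.7% of all genes tested that did not overlap and 20.9% that did so with HET lower. At an unadjusted p under 0.01, Slc6a4 was the 1 member past the limit in the quasi-likelihood test, beside 0.252% of all genes. In edgeR's likelihood-ratio test, which the study used with this limit inside clusters, Slc6a4 and Tph2 were past it, beside 0.747% of all genes. In sums over a whole library, fewer cells of a type and less RNA per cell cannot be told apart. Leaving out WT replicate 1 gave 122 calls, none of them a member.

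A single nucleus weighed on these sums. In HET replicate 1, 1 nucleus with 37749 UMIs held 95 of the 167 Tph2 UMIs of the library (56.9%) and 20 of its 42 Slc6a4 UMIs (47.6%), with 14 of Ddc and 17 of Slc18a2. Without it, HET replicate 1 stood at 0.817 CPM for Tph2 and 0.2497 CPM for Slc6a4. The log2 fold changes of HET against WT were then -1.56 for Tph2 and -1.91 for Slc6a4, with adjusted p of 0.9998 in edgeR for both. This nucleus was singled out after its values were seen. It was taken out of a HET library and no WT nucleus was taken out in turn, so the direction of the shift was fixed in advance.

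The transcripts were counted in a small part of the nuclei, most often as a single UMI. Slc18a2 was found in 3366 nuclei, Ddc in 969, Th in 280, Slc5a7 in 264, Tph2 in 250, Chat in 180, Slc6a3 in 113, Slc6a4 in 85, Slc18a3 in 20 and Dbh in 14. The share of these nuclei with exactly 1 UMI was 88.7% for Slc18a2, 81.6% for Tph2, 81.4% for Th and 55.3% for Slc6a4. All 14 Dbh nuclei had 1 UMI.

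Clustering gave 32 clusters of nuclei, and the 10 genes were spread unevenly over them. Because members and their partners were kept out of the clustering genes, the levels below describe the clusters and are not tests. Cluster 1 (8369 nuclei, led by Otx2os1, Ebf1 and Ebf3), whose leading genes belong to none of the marker lists and which stays unnamed, held 64.2% of the Ddc UMIs, 68.1% of Slc6a3, 67.3% of Tph2, 77.8% of Slc6a4, 57.1% of Chat and 48.2% of Slc5a7. It made up 18.3%, 15.7%, 14.7% and 14.5% of the nuclei of the libraries, and 3 of 4 inhibitory markers were at least 2 times as high in it as in the other nuclei. Slc18a2 was counted in all 32 clusters, in 1.496% to 20.2% of the nuclei, and Ddc in all 32, in 0.0770% to 21.0%.

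Th was highest in cluster 25 (460 nuclei, led by Pde1c, Lgr5 and Gm8239), where all 4 inhibitory markers met that limit. Th reached 57.9 ± 6.38 CPM there (SD over 4 libraries), with 49.1, 57.4, 63.6 and 61.4 CPM, and the cluster held 27.3% of all Th UMIs. Cluster 9 (1673 nuclei, led by Cpa6, Lgr6 and Frmd7) followed at 7.60 ± 1.56 CPM, a gap larger than the spread of both, and cluster 1 at 2.45 ± 0.8695 CPM. From the third place on, neighbouring clusters were within their spread. Slc6a3 was also highest in cluster 25, at 16.5 ± 4.51 CPM, ahead of cluster 1 at 4.02 ± 1.95 CPM.

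Ddc was highest in the endothelial-like cluster 22, which carries endothelial and mural markers, at 86.9 ± 24.8 CPM and in 21.0% of its 685 nuclei. The libraries there gave 79.4, 56.4, 97.8 and 114 CPM. Cluster 1 (25.2 ± 7.71 CPM) and cluster 25 (20.5 ± 4.09 CPM) came next and did not differ beyond their spread, and oligodendrocyte-like cluster 5 stood at 12.9 ± 1.35 CPM. Slc18a2 was highest in cluster 27 (40.05 ± 15.3 CPM), cluster 32, cluster 25 and cluster 1 (28.5 ± 4.73 CPM), whose neighbours in that order did not differ beyond their spread, and then dropped to 13.5 ± 5.46 CPM in cluster 17.

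Tph2 and Slc6a4 led in cluster 32 (43 nuclei), where all their UMIs came from the 1 nucleus above, and then in cluster 1, at 13.2 ± 9.84 CPM for Tph2 and 5.11 ± 3.29 CPM for Slc6a4. Chat and Slc5a7 were highest in cluster 13 (1317 nuclei, led by Vip, Egfr and Adarb2), an interneuron-like cluster with all 5 markers of the caudal ganglionic eminence. Chat reached 7.61 ± 5.38 CPM and Slc5a7 16.5 ± 9.94 CPM there, with libraries at 5.70, 15.3, 29.8 and 15.3 CPM for Slc5a7. Neither gap to the next cluster was larger than the spread. Cluster 13 held 16.5% of all Chat UMIs and 23.1% of all Slc5a7 UMIs.

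As a measure of background, the microglia-like cluster 17 (1145 nuclei, median 1744 UMIs), which should lack these genes but also met all 5 oligodendrocyte markers, had a Th UMI in 0.262% of nuclei, Slc6a3 in 0.349%, Tph2 in 0.0873%, Chat in 0.349% and Slc5a7 in 0.524%. For cluster 1 (median 4745 UMIs) the shares were 0.920% for Th, 0.526% for Slc6a3, 0.824% for Tph2, 0.920% for Chat and 1.004% for Slc5a7. All 12 Slc6a3 UMIs of cluster 17 were in WT replicate 2, so the difference between genotypes there (adjusted p = 0.987, edgeR) rests on that library. The endothelial-like cluster 22 (median 1795 UMIs) had 0 of 685 nuclei with Th or Slc6a3, which allows a share of nuclei with a UMI of up to 0.438%. Dbh had 9 clusters with a UMI and no cluster above 0.266% of nuclei, so no cluster stood out from background for it.

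**Figure D2:**
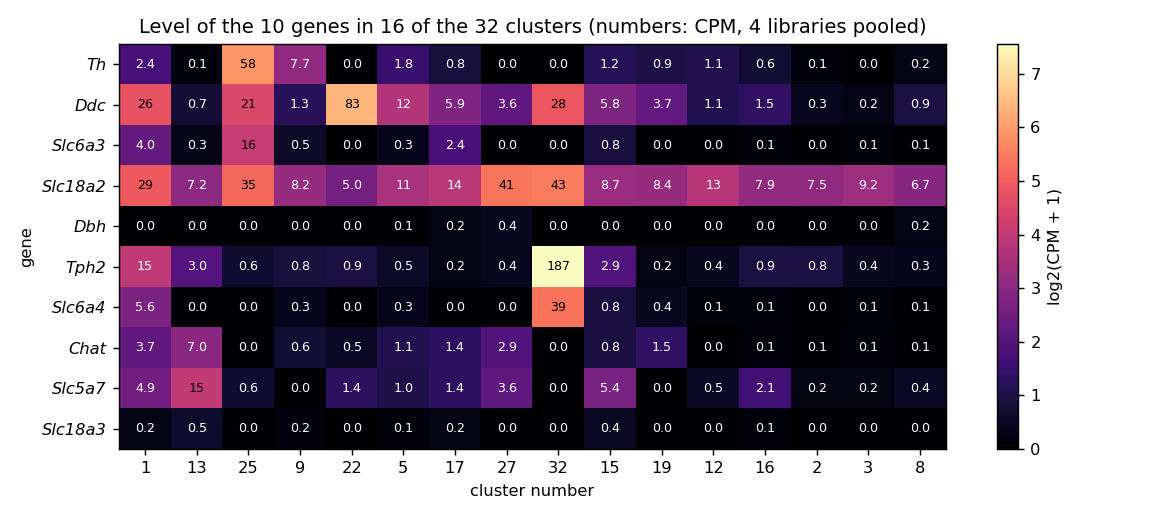
Level of the 10 genes (rows) in 16 of the 32 clusters (columns), pooled over the 4 libraries; each cell prints the CPM and its colour shows log2(CPM + 1). Th peaks in cluster 25, Ddc in cluster 22, Tph2 in cluster 32 through 1 nucleus, and Chat and Slc5a7 in cluster 13, while Slc18a2 is above 0 in every cluster shown.

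Over the 31 clusters compared, the genes whose levels followed each member most closely are given with Pearson's r of log2(CPM + 1), as a description: the points share libraries and depth, and rare genes follow single clusters. For Th they were A930009A15Rik (r = 0.86), Trh (0.86), the precursor of thyrotropin-releasing hormone, and Scgn (0.85), a calcium-binding protein. For Slc6a3 they were Egf (0.83), Th (0.80) and Svep1 (0.79), and for Ddc 1700042O10Rik (0.94), Aurkaip1 (0.84) and Asb4 (0.84). Slc18a2 was followed by Gm45194 (0.82), Gm49337 (0.75) and Epo (0.71). Tph2 was followed by D130079A08Rik (0.81), 9030622O22Rik (0.78) and the transcription factor Gata3 (0.76), and Slc6a4 by the transcription factors Sox14, Pax3 and Lmx1a (0.83 each). The gene closest to Chat was Slc5a7 (0.79), followed by Rasef (0.75) and D030055H07Rik (0.72), and Slc5a7 was followed by Grpr (0.81), 1700030L22Rik (0.80) and Fam46a (0.80).

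In single nuclei, genes of 1 pathway were counted together. Among all pairs of the 10 genes, Ddc with Slc18a2 was the most frequent, in 185 nuclei, and Chat with Slc5a7 was found in 59. Th and Slc6a3 were found together in 42 nuclei and Tph2 and Slc6a4 in 38. Th and Slc6a4, Slc6a3 and Tph2, Slc6a3 and Slc6a4, Slc6a3 and Chat, and Slc6a4 and Chat shared 0 nuclei, and Th with Tph2 shared 1. Each of these 5 genes was found in 0.163% to 0.537% of all nuclei, so rare that counts of 0 are not read as a contrast. Slc18a2, which was counted widely, was found with Slc5a7 in 27 nuclei and with Chat in 17.

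Nuclei with more than 1 UMI of a gene had its partners more often than those with 1 UMI. Of the 46 nuclei with at least 2 Tph2 UMIs, 37 (80.4%) had Slc6a4, against 1 of 204 (0.490%) with 1 Tph2 UMI. Of the 38 with at least 2 Slc6a4 UMIs, 36 (94.7%) had Tph2, 36 had Ddc and 37 had Slc18a2. Of the 39 nuclei with at least 2 Slc6a3 UMIs, 36 (92.3%) had Ddc, 35 (89.7%) had Slc18a2 and 26 (66.7%) had Th. By contrast, 20 of 52 nuclei (38.5%) with at least 2 Th UMIs had Slc6a3, against 22 of 228 with 1. Of 57 nuclei with at least 2 Chat UMIs, 37 (64.9%) had Slc5a7, against 22 of 123 (17.9%) with 1. For Slc18a2, 102 of 379 (26.9%) had Ddc, against 83 of 2987 (2.78%) with 1 UMI. Doublet scores and depth move with these counts, and their part was not tested.

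**Figure D3:**
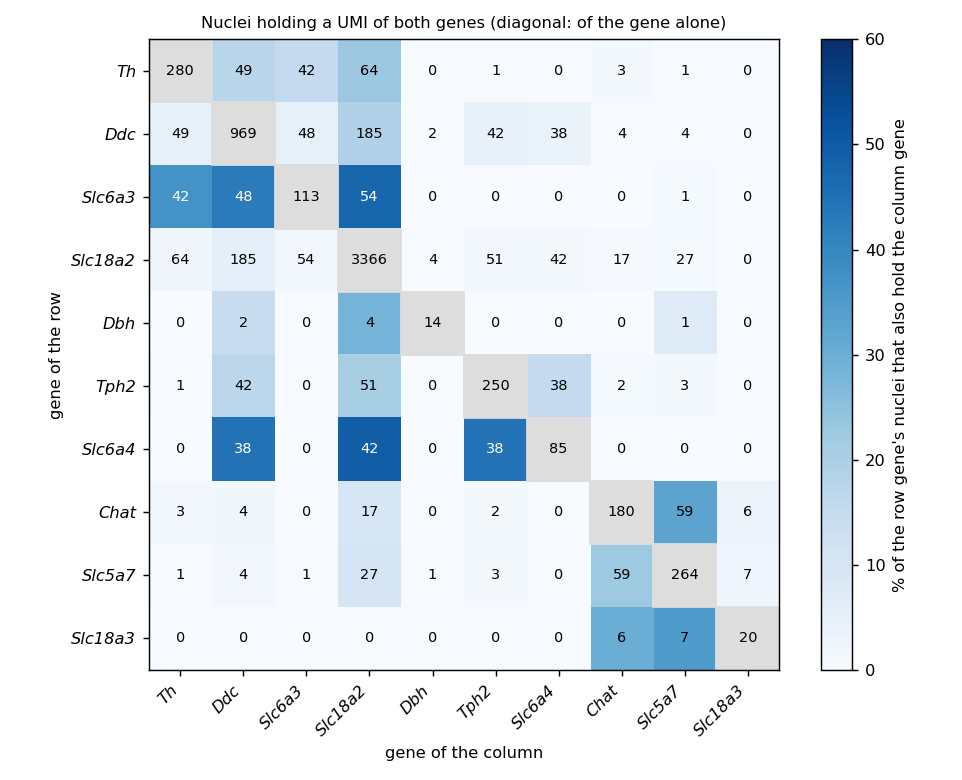
Number of nuclei with a UMI of both genes for each pair of the 10 genes, with nuclei of the single gene on the diagonal; the colour is the percentage of the row gene's nuclei that also held the column gene. The darkest cells are Slc6a4 with Ddc, Slc18a2 and Tph2, and Slc6a3 with Ddc, Slc18a2 and Th.

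Sets of nuclei were then formed by co-detection, with at least 1 UMI of each gene of a pair, and described per library: the genes that define a set are no finding in it. The median depth of set nuclei was 9727 UMIs for the dopamine set, 9853 for serotonin, 9225 for Ddc with Slc18a2 and 6464.5 for acetylcholine, beside 5760 over all nuclei. High doublet scores were carried by 9 of 42, 1 of 38, 34 of 185 and 13 of 62 nuclei. No nucleus was in more than 1 of the dopamine, serotonin and acetylcholine sets.

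The serotonin set (Tph2 and Slc6a4) held 20, 11, 2 and 5 nuclei, 0.124%, 0.0721%, 0.0209% and 0.0447% of the kept nuclei of the libraries. Exact binomial 95% intervals were 0.0758% to 0.192%, 0.0360% to 0.129%, 0.00253% to 0.0753% and 0.0145% to 0.104%, and such intervals cover counting error only. Both HET libraries were below both WT libraries. The mean share was 0.0981% ± 0.0367 (SD, n = 2) in WT and 0.0328% ± 0.0169 (n = 2) in HET, a difference of -0.0653 percentage points (exact two-sided permutation p = 0.333). That p is the smallest that 2 against 2 libraries allow, so no comparison of shares here can pass 0.05. With each nucleus thinned to 2000 UMIs, 32 nuclei remained and the difference was -0.0639 points. Without WT replicate 1 it was -0.0394 points. Hox genes, which mark hindbrain and spinal cord, had 1.005, 0.386, 0.511 and 0.347 CPM in the libraries, so WT replicate 1, with the most serotonin nuclei, also had the most Hox UMIs, 112. The part of brainstem content in the serotonin difference was not tested.

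Nuclei of the serotonin set carried the whole pathway. All 38 held both Ddc and Slc18a2, which the rule did not use, with medians of 10 and 9 UMIs per nucleus. The median of Tph2 was 18.5 UMIs with a highest value of 95, and that of Slc6a4 was 6.5 with a highest value of 20. The set held 79.1% of all Tph2 UMIs and 85.9% of all Slc6a4 UMIs in 0.0729% of the nuclei, and 34 of its 38 nuclei were in cluster 1. Of 11 serotonin partner genes, 8 had a UMI in at least 10% of the set. Set nuclei were deeper than nuclei at large, with medians of 9853 against 5760 UMIs, which raises detection of any gene. The share of all genes past that limit is not given, so such counts of partners are descriptions, here and below. The transcription factor Lmx1b, which serotonin neurons need to keep their identity, was found in 84.2%, the amine transporter Slc22a3 in 71.1% and the amine oxidase Maob in 68.4%. Gch1, the first enzyme for the cofactor tetrahydrobiopterin, was found in 60.5%, Gata3 in 44.7% and Gata2 in 31.6%. The vesicular glutamate transporter Slc17a8 was found in 28.9%. Slc32a1, the vesicular GABA transporter, had a UMI in 0 of 38, as did the serotonin receptor gene Htr5b. A count of 0 allows a share of nuclei with a UMI of up to 7.89% and sets no limit on nuclei that express a gene, here and below.

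The dopamine set (Th and Slc6a3) held 10, 9, 11 and 12 nuclei, or 0.0621%, 0.0590%, 0.115% and 0.107% of the libraries. Both HET libraries were above both WT libraries. The mean was 0.0605% ± 0.00214 (SD, n = 2) in WT and 0.111% ± 0.00523 (n = 2) in HET, a difference of 0.0505 points (exact permutation p = 0.333). HET nuclei were also deeper, with medians of 7454 and 6656 UMIs against 5490 and 4636. Thinned to 2000 UMIs, 10 nuclei remained, at 3, 1, 2 and 4 per library, or 0.0212%, 0.00761%, 0.0225% and 0.0381% of the nuclei deep enough. Both HET shares were still above both WT shares, but WT replicate 1 and HET replicate 1 were close. The difference was 0.0159 points and rests on very few nuclei.

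Dopamine set nuclei fell in 2 main clusters, in which different partners were counted. Of the 42, 24 were in cluster 1 (6, 2, 6 and 10 by library), 11 in the inhibitory cluster 25 (3, 2, 5 and 1) and 3 in cluster 18. High doublet scores were carried by 95.2% of all nuclei of cluster 18. In cluster 1, Ddc was found in 23 of 24 (95.8%) and Slc18a2 in 22 (91.7%), and 13 of 15 dopamine partner genes were found in at least 10% of the nuclei. The dopamine autoreceptor gene Drd2 was found in 79.2%, the growth factor receptor Ret and the neurotensin receptor Ntsr1 in 70.8% each, and the transcription factors En1 and Lmx1b in 58.3% each. Aldh1a1, an aldehyde dehydrogenase of ventral midbrain neurons, and the nicotinic receptor subunit Chrna6 were found in 54.2% each, and Chrnb3 and Gch1 in 50.0% each. In the 11 nuclei of cluster 25, by contrast, Ddc was found in 1 (9.09%) and Slc18a2 in 4 (36.4%), and 3 of the 15 dopamine partners in at least 10%. Gad1 and Gad2, which make GABA, were each found in 10 of the 11 (90.9%). En1, Lmx1b, Aldh1a1 and Gch1 had a UMI in 0 of 11, which allows a share of nuclei with a UMI of up to 27.3%. The median over all nuclei of cluster 25 was 2526 UMIs, beside 4745 in cluster 1. The part of depth in the partner counts of the 2 clusters was not tested. Over the whole set, the median was 1 UMI per nucleus for Th, with a highest value of 7, and 2.5 for Slc6a3, with a highest value of 11. None of the 42 had a UMI of Tph2, Slc6a4, Chat, Slc5a7, Slc18a3 or Dbh.

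Ddc and Slc18a2, which dopamine and serotonin neurons both need, were found together in 63, 49, 28 and 45 nuclei, 0.391%, 0.321%, 0.292% and 0.402% of the libraries. The WT mean was 0.356% ± 0.0492 (SD, n = 2) and the HET mean 0.347% ± 0.0781 (n = 2), a difference of -0.00895 points (exact permutation p = 1), and the genotypes overlapped. Of the 185 nuclei, 38 (20.5%) also held Tph2 or Slc6a4 and 50 (27.03%) held Th or Slc6a3, and 0 held genes of both kinds. The remaining 97 (52.4%; 27, 26, 19 and 25 by library) held neither. In these 97, Gad2 was found in 55.7% and Gad1 in 41.2%, beside 17.5% and 16.4% of the other nuclei, 0 of 11 serotonin partners reached 10% of the nuclei and 2 of 15 dopamine partners did. Cluster 1 held 135 of the 185 nuclei, oligodendrocyte-like cluster 5 held 10, and microglia-like cluster 17 held 8, of which 7 were in WT replicate 2.

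Against all other nuclei of the same library, the Ddc and Slc18a2 nuclei differed widely. With the library as a block, 1677 of 11284 genes (14.9%) passed edgeR's quasi-likelihood test at an adjusted p of 0.05, 801 higher (7.1%) and 876 lower (7.76%). The synthesis and uptake genes that the rule did not use were among the higher ones. Slc6a4 stood at 238, 160, 98.4 and 69.6 CPM in the set and at 0.0346 to 0.209 CPM outside it, a log2 difference of 9.99 ± 0.31 (SE, adjusted p = 1.32e-12, edgeR). Tph2 stood at 691, 375, 338 and 189 CPM in the set, a log2 difference of 9.23 ± 0.21 (adjusted p = 3.40e-14, edgeR). Slc6a3 stood at 92.4, 71.2, 101 and 144 CPM, a difference of 8.70 ± 0.45 (adjusted p = 1.76e-09, edgeR), and Th at 21.5, 34.7, 35.3 and 58.7 CPM, a difference of 5.46 ± 0.45 (adjusted p = 2.94e-07, edgeR). Every library had a higher value in the set than outside it for all 4 genes.

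Among genes found in at least 10% of these nuclei in every library, the others with the largest rise included developmental regulators and Gch1. En1 rose by 6.66 ± 0.55 on the log2 scale (26.4, 21.2, 20.2 and 21.7 CPM) and Lmx1b by 6.22 ± 0.36 (85.8, 77.0, 55.5 and 37.0 CPM). Gch1 rose by 6.11 ± 0.51, Ret by 4.34 ± 0.33 and Ntn1, an axon guidance factor, by 4.16 ± 0.23. Of 6 tetrahydrobiopterin cofactor genes, 3 had enough counts to be tested. Besides Gch1 these were Qdpr (0.53, adjusted p = 0.280, edgeR) and Pts (0.46, adjusted p = 0.403, edgeR), which were not called. 9030622O22Rik and Ttc6 rose by 5.52 and 4.89, and 1700042O10Rik, which overlaps Ddc, by 7.24. Genes entered this test by their counts in the set, so 12 of 15 dopamine partners and 8 of 11 serotonin partners were tested, and how many of those rose is not read as a result. Of 5 amine-degrading genes, Maob (3.06) and Maoa (0.90) rose. Slc17a7, the vesicular glutamate transporter of cortical excitatory neurons, fell by 2.07. The count of genes past the threshold was 796 of 11284 against other nuclei of clusters 1 and 5, although some set nuclei lay in other clusters. It was 1104 without WT replicate 1 and 1116 without HET replicate 2. The 12 genes named with the largest differences here kept their direction and their side of the threshold in all 132 values computed under alternatives. Most of them were picked by the main fit and the alternatives reuse most of the same nuclei, so this agreement is no separate support.

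**Figure D4:**
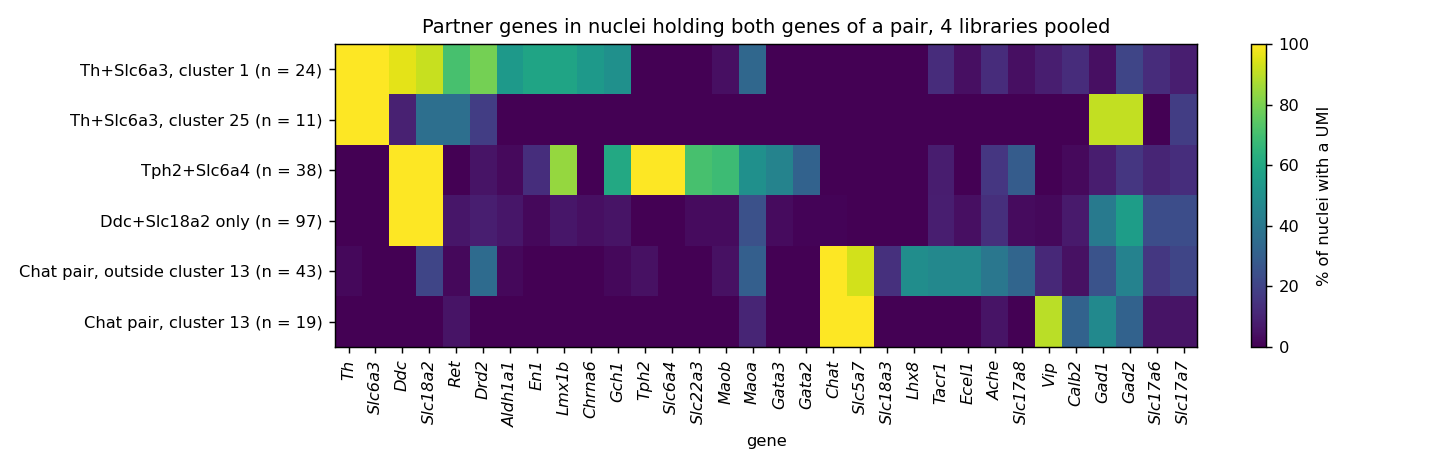
Percentage of nuclei with a UMI of each gene (columns) in 6 groups of co-detection nuclei (rows, with their number), pooled over the 4 libraries; colour runs from 0 to 100%. Th and Slc6a3 nuclei of cluster 1 carry Ddc and Slc18a2 and those of cluster 25 carry Gad1 and Gad2, and the Chat nuclei split into a group with Vip and one with Lhx8 and Tacr1.

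The acetylcholine set (Chat with Slc5a7 or Slc18a3) held 11, 22, 18 and 11 nuclei, 0.0683%, 0.144%, 0.188% and 0.0984% of the libraries, and the genotypes overlapped. The WT mean was 0.106% ± 0.0538 (SD, n = 2) and the HET mean 0.143% ± 0.0632 (n = 2), a difference of 0.0368 points (exact permutation p = 0.667). Thinned to 2000 UMIs, 21 nuclei remained and the difference was -0.00618 points. Slc5a7 was the partner in 59 of the 62 nuclei and Slc18a3 was found in 6. Cluster 1 held 31 of the nuclei (8, 12, 5 and 6) and the Vip cluster 13 held 19 (0, 5, 10 and 4).

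The partner genes counted in the acetylcholine nuclei of cluster 13 and of other clusters are described side by side. In the 19 nuclei of cluster 13, Vip, the vasoactive intestinal peptide gene, was found in 89.5%, Gad1 in 47.4%, the vesicular GABA transporter Slc32a1 in 36.8% and Calb2 in 31.6%. Lhx8, a transcription factor that forebrain acetylcholine neurons need, had a UMI in 0 of 19, as did Tacr1 and Ecel1, which allows a share of nuclei with a UMI of up to 15.8%. In the 43 nuclei of other clusters, the muscarinic receptor Chrm2 was found in 74.4%, Lhx8 in 48.8%, the substance P receptor Tacr1 and the endopeptidase Ecel1 in 46.5% each, and Ache, which breaks down acetylcholine, in 39.5%. Drd2 was found in 34.9%, Slc17a8 in 32.6%, the transcription factor Isl1 in 20.9% and Vip in 11.6%. Beside these values, Lhx8 was found in 0.338% and Tacr1 in 4.49% of all other nuclei. Chrm2 was counted widely, at 159 to 192 CPM outside the acetylcholine set.

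Against all other nuclei, 604 of 6763 genes (8.93%) passed the same test in the acetylcholine set, 283 higher (4.18%) and 321 lower (4.75%). Lhx8 rose by 6.84 ± 0.66 on the log2 scale, with 54.5, 131, 63.8 and 90.1 CPM in the set and at most 0.941 CPM outside it (adjusted p = 1.68e-05, edgeR). Prima1, which anchors acetylcholinesterase in the membrane, rose by 5.90 ± 0.36 (436, 320, 122 and 237 CPM), and Tacr1 by 5.38 ± 0.20 (512, 628, 302 and 507 CPM). Ecel1 rose by 4.79, Pde3a by 4.26, Drd2 by 4.13, the chloride channel Cftr by 3.56 and Gm15496 by 3.41. Acly, which makes the acetyl-CoA that Chat uses, rose by 3.31 ± 0.26 (261, 177, 122 and 248 CPM in the set, 17.1 to 19.7 CPM outside it). Of 25 acetylcholine partners, 15 had enough counts in the set to be tested, and among them Ache rose by 2.36, Bche by 2.93 and Chrm2 by 1.35. Vip rose by 4.59 over the set, with 0, 523, 604 and 214 CPM, so WT replicate 1 had none, in step with its 0 nuclei in cluster 13. The count was 306 of 6763 against other nuclei of clusters 1, 5 and 13, although some set nuclei lay in other clusters. It was 311 without WT replicate 2 and 319 without HET replicate 1. The 10 leading genes kept their direction and their call in all 110 values computed under alternatives. They were picked by the main fit and the alternatives reuse most of the same nuclei, so this agreement is no separate support.

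Noradrenaline nuclei were at the limit of detection. Dbh was found with Slc18a2 in 2, 0, 1 and 1 nuclei and with Th in 0, and the count of 0 in WT replicate 2 allows a share of nuclei with both UMIs of up to 0.0197% by the limit of 3 counts and 0.0242% by the exact binomial interval. Of these 4 nuclei, 3 carried high doublet scores, and each was in a different cluster. Beyond single UMIs of Dbh, noradrenaline nuclei were not detectable at this depth.

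Inside the sets, the genotypes were compared where every library had at least 10 nuclei. In the Ddc and Slc18a2 nuclei, 0 of 9315 genes (0%) passed the adjusted threshold in edgeR, 424 had an unadjusted p under 0.05, and DESeq2 also called 0. Slc6a4 stood at 235, 157, 97.3 and 68.7 CPM, with both HET libraries lower, a log2 difference of -1.23 ± 0.29 (adjusted p = 0.983, edgeR). Tph2 stood at 684, 370, 334 and 187 CPM, a difference of -0.999 ± 0.33 (adjusted p = 0.983, edgeR). At an unadjusted p under 0.01, Slc6a4 was the member past the limit, beside 0.676% of all genes tested. Slc6a4 and Tph2 each had a UMI in 31.7%, 22.4%, 7.14% and 11.1% of the set nuclei. Both met the detection limit of 10% through the WT nuclei, where they were higher, so their contrast here is a description. Aldh1a1 stood at 47.3, 38.0, 84.8 and 122 CPM, with both HET libraries higher, a difference of 1.30 ± 0.30 (adjusted p = 0.983, edgeR). Of all genes tested there, 18.1% had both HET libraries lower and 15.3% both higher. Th differed by 0.80 ± 0.41, Slc6a3 by 0.60 ± 0.28 and Maob by -1.46 ± 0.42, each also short of the adjusted threshold. Serotonin nuclei made up 20 of 63, 11 of 49, 2 of 28 and 5 of 45 of the nuclei summed, so these sums move with how many of each kind were counted. Over the 11 alternatives, Tph2 ran from -1.48 to -0.47 and Slc6a4 from -1.59 to -0.90. Without HET replicate 1, which holds the nucleus with 95 Tph2 UMIs, both stayed lower in HET. Without WT replicate 1 the differences were smaller, -0.47 for Tph2 and -0.90 for Slc6a4, and without HET replicate 2 Tph2 was at -0.63. A fit without 1 library leaves 1 mouse in its genotype, so no p is given for it. With no filter on low counts, the adjusted p in edgeR were 0.0122 for Tph2 and 0.00908 for Slc6a4, and 25 of 18007 genes were called.

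In the acetylcholine nuclei, 0 of 6734 genes (0%) passed the adjusted threshold in edgeR, 326 had an unadjusted p under 0.05, and DESeq2 also called 0. Chat and Slc5a7 define the set, so their levels in it are given as a description and are not read as a test. Chat stood at 340, 376, 232 and 364 CPM (log2 difference -0.27 ± 0.35) and Slc5a7 at 546, 443, 336 and 321 CPM (-0.55 ± 0.33). Chat overlapped between genotypes. Slc5a7 did not overlap, with HET lower, as did 17.8% of all genes tested there (33.9% in either direction). At an unadjusted p under 0.01, 0.98% of all genes tested were past the limit. Tacr1 stood at 484, 591, 287 and 482 CPM and Lhx8 at 51.5, 123, 60.7 and 85.6 CPM.

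Inside clusters, no member passed the adjusted threshold, and the serotonin genes were the members past an unadjusted p of 0.01 in cluster 1. In cluster 1, where edgeR called 0 of 18754 genes (0%), with 522 at an unadjusted p under 0.05, and DESeq2 called 1, Slc6a4 had 144, 74, 19 and 33 UMIs (9.20, 6.27, 1.87 and 3.101 CPM), a log2 difference of -1.64 ± 0.34 (adjusted p = 0.9999, edgeR). Tph2 had 423, 151, 43 and 94 UMIs (27.01, 12.8, 4.24 and 8.83 CPM), a difference of -1.62 ± 0.39 (adjusted p = 0.9999, edgeR). At an unadjusted p under 0.01 these 2 members stood beside 0.459% of all genes tested. The nucleus of HET replicate 1 with 95 Tph2 UMIs lay in cluster 32, so the cluster 1 sums leave it out. Cluster 1 held 19, 9, 1 and 5 nuclei of the serotonin set. The sums of Slc6a4 and Tph2 there therefore move with how many such nuclei were counted. Both HET libraries were below both WT libraries for both genes, as for 14.2% of all genes tested in cluster 1 (26.5% did not overlap in either direction). Slc6a3 had 66, 18, 41 and 67 UMIs there, a difference of 0.80 ± 0.45, and overlapped. Over the 10 alternatives, Tph2 ran from -2.25 to -0.91 and Slc6a4 from -2.06 to -1.27. Without WT replicate 1 the differences were smaller, -0.91 for Tph2 and -1.27 for Slc6a4. Slc6a3 ran from 0.28 to 1.81 over the 10 alternatives and was highest without WT replicate 1. A fit without 1 library leaves 1 mouse in its genotype, so no p is given for it. With no filter on low counts, Tph2 and Slc6a4 passed the threshold (adjusted p = 3.08e-07 and 0.000273, edgeR), in a setting that called 99 of 24186 genes. Csf1r itself differed by 1.87 on the log2 scale in cluster 1, from 16, 22, 61 and 46 UMIs, and was higher in HET, by 1.52 to 2.42, in each of the 7 clusters tested with enough counts other than the microglia-like one. None of these differences passed the adjusted threshold in edgeR.

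In cluster 13, Slc5a7 had 13, 34, 45 and 21 UMIs (1.15 ± 0.41, adjusted p = 0.9999, edgeR) and Chat had 6, 15, 23 and 8 UMIs (1.21 ± 0.54, adjusted p = 0.9999, edgeR). Over the 10 alternatives, Slc5a7 ran from 0.58 to 1.96 and Chat from 0.35 to 1.97. The highest value of Slc5a7 came without WT replicate 2, which leaves 1 WT library. At an unadjusted p under 0.01, 0 members were past the limit in clusters 9 and 13, beside 0.955% and 0.645% of the genes tested there. In cluster 25, Th had 22, 24, 39 and 12 UMIs (0.23 ± 0.30), and in cluster 9 it differed by -0.32 ± 0.45. Ddc in the endothelial-like cluster 22 had 74, 29, 38 and 41 UMIs, a difference of 0.55 ± 0.26 (adjusted p = 0.698, edgeR), where 15 of 12369 genes (0.121%), all lower in HET and none of them a member, were called. In the other 9 clusters tested, edgeR called 0 genes, with 339 to 610 at an unadjusted p under 0.05, and DESeq2 called 0 to 6.

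**Figure D5:**
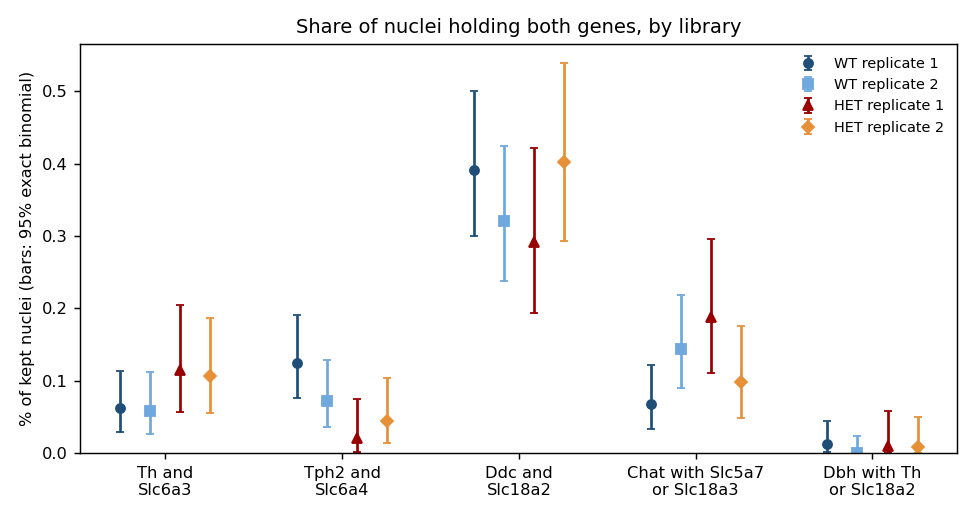
Share of kept nuclei in each of the 5 co-detection sets, in percent, by library; points are libraries and bars are exact binomial 95% intervals. The serotonin pair is lower in both HET libraries, the dopamine pair is higher in both HET libraries, and the genotypes overlap for the other 3 sets.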

How the data were processed

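The authors perfused brains of 2-month-old mice with heparin in PBS, isolated nuclei with a detergent-free kit, removed myelin with magnetic beads, made 10x Chromium 3′ v3.1 libraries and sequenced them. They deposited raw UMI counts for each called nucleus from Cell Ranger (5.0.0 per the file headers), unfiltered and not normalized, with mm10 as the build in the submitters' processing notes. Whether intronic reads were counted is not stated in the sources used here. The members and gene lists were chosen with earlier results of these data known.

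The study's limits on UMIs (500 and 50000), genes (200) and mitochondrial share (5%) were applied. The nuclei left were clustered with scanpy 1.11.5 and leidenalg 0.10.2 (3000 variable genes, scaled within each library, without the members and their partner lists, 30 principal components, 20 neighbours, resolution 1). High doublet scores were marked in 5673 nuclei. These nuclei were kept in the main values and removed as an alternative. Of 31053 gene rows, 30934 matched GENCODE mouse annotation by identifier.

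UMI counts were summed per library and group of nuclei and tested with edgeR 4.0.16's quasi-likelihood test (TMM scaling, at least 10 counts over the sums, Benjamini-Hochberg adjustment, two-sided). Contrasts of a set with other nuclei had the library as a block. Inside a set, genes also needed a UMI in 10% of the set nuclei of either genotype. Shares were compared by exact permutation tests with scipy 1.17.1, for which 2 against 2 libraries cannot give a p below 0.333. Depth was 88097109 to 111488169 UMIs per library. Named genes were the members, the partner lists, the 10 genes with the largest rise in each tested set and the 3 genes most like each member over clusters, except a few that are not reported here. Alternatives were DESeq2 1.42.0, a likelihood-ratio test, other scalings, no count filter, a minimum of 1000 UMIs, removal of doublets, thinning to 2000 UMIs, each library left out and a replicate block. Same-numbered replicates did not deviate together (r = -0.03 over 23027 genes), so the numbers were not taken as pairs. Simulated 4-fold changes were recovered for 94% of changed genes over all nuclei (23011 genes) and 79% inside the Ddc and Slc18a2 nuclei (11253 genes), and 2-fold changes for 17% and 12%. The simulation gave every gene the same spread between libraries and changed only genes with more counts than the test required. These shares therefore do not hold for rarer genes or for genes that vary more between libraries.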

Additional observations from a re-analysis of the deposited data

How the results depend on the processing

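With 2 libraries per genotype, counts of called genes moved with single libraries. Between genotypes, a fit without 1 library leaves 1 mouse in its genotype, so its count carries no spread between mice there. With each replicate left out in turn, the genes called over all nuclei ran from 0 to 122, against other nuclei from 1104 to 1583 for the Ddc and Slc18a2 set and from 311 to 562 for the Chat set, and between genotypes inside these sets from 0 to 52 and from 3 to 51. Between genotypes inside clusters they ran from 0 to 216 in cluster 1, 0 to 83 in cluster 2, 0 to 12 in cluster 3, 0 to 25 in cluster 5, 0 to 0 in cluster 8, 0 to 10 in cluster 9, 9 to 132 in cluster 13, 0 to 261 in cluster 17, 0 to 178 in cluster 22 and 0 to 58 in cluster 25. The differences in shares, HET minus WT, ran from -0.0913 to -0.0394 points for the serotonin set, 0.0468 to 0.0542 for dopamine, -0.0642 to 0.0463 for Ddc with Slc18a2, -0.0079 to 0.0814 for acetylcholine and -0.00273 to 0.00969 for noradrenaline.

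With no filter on low counts, the calls were 981 for the Chat set against other nuclei, 25 and 12 between genotypes inside the Ddc and Slc18a2 and the Chat sets, 99 in cluster 1, 80 in cluster 3, 40 in cluster 5, 42 in cluster 8, 87 in cluster 9, 46 in cluster 13, 31 in cluster 17, 109 in cluster 22 and 1 in cluster 25. Against other nuclei of clusters 1 and 5 they were 796 for the Ddc and Slc18a2 set, and against those of clusters 1, 5 and 13 they were 306 for the Chat set. DESeq2 called 1 gene in cluster 1, 1 in cluster 2 and 6 in cluster 3. In cluster 22, RLE size factors gave 3 calls, a minimum of 1000 UMIs 3 and removal of doublets 2. Removal of doublets gave 1 call in cluster 1 and 11 in cluster 25. The causes were not tested.

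With the replicate block, although the numbers share no design, the calls were 1 over all nuclei, 19 inside the Ddc and Slc18a2 set, 1 in cluster 1, 2 in cluster 5, 7 in cluster 8, 28 in cluster 9, 27 in cluster 13 and 88 in cluster 22. Inside the Ddc and Slc18a2 set, 19 of 9315 genes were called with it, among them Tph2 (adjusted p = 0.0327, edgeR) and Slc6a4 (adjusted p = 0.0110, edgeR). Both genes met the detection limit of the set through the WT nuclei, where they were higher. Their sums also move with how many serotonin nuclei were counted in each library. The calls of Tph2 and Slc6a4 are therefore a description and are not read as a test of genotype.

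Of the log2 fold changes of named genes, 541 values under alternatives kept direction and call, 12 passed the threshold where the main value did not, and 20 changed sign. Scaling by library totals alone turned Th to -0.0346 and Slc6a3 to -0.0354 over all nuclei, and removal of doublets turned Chat in cluster 1 to 0.0464. With a replicate left out, the range over all nuclei was -0.0638 to 0.696 for Dbh, -0.213 to 0.246 for Th, -0.60 to 0.38 for Chat, -0.21 to 0.22 for Slc6a3, -0.55 to 0.31 for Slc5a7 and -0.32 to 0.47 for Slc18a2. In cluster 1 it was -0.54 to 0.53 for Chat, -0.70 to 0.15 for Ddc, -0.58 to 0.18 for Slc5a7 and -0.40 to 0.17 for Slc18a2. Inside the Ddc and Slc18a2 set, which Slc18a2 helps to define, its range was -0.44 to 0.0088 and is no finding. Share differences changed sign for Ddc with Slc18a2 after removal of doublets (0.0095 points), for acetylcholine after thinning (-0.00618) and for noradrenaline with 2 UMIs of a gene (-0.0031), and thinning left noradrenaline at 0. The depth of single nuclei limits what co-detection can show, since most positive nuclei held 1 UMI.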

Other observations

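When cluster 1 was divided into 34 subclusters without using the members or their partners, the nuclei with these genes gathered in a few of them, chosen here after their values were seen. Subcluster 31 (49 nuclei; 22, 15, 3 and 9 by library) held 670 of the 1056 Tph2 UMIs, at 1790, 1132, 1250 and 1086 CPM, and 33 of the 38 serotonin nuclei. Its share of the kept nuclei was 0.137%, 0.0984%, 0.0313% and 0.0805%, with a difference of HET minus WT of -0.0616 percentage points (exact permutation p = 0.333, the smallest that 2 against 2 libraries allow). Subcluster 31 thus had the fewest nuclei in HET replicate 1, and both HET shares were below both WT shares. The same held for subclusters 1, 4 and 5, among others, while the genotypes overlapped in subclusters 2 and 3. It is therefore not particular to subcluster 31. Within subcluster 31, Tph2 per UMI did not separate the genotypes.

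Subcluster 18 (171 nuclei; 51, 44, 24 and 52) held 21 of the dopamine nuclei, with Slc6a3 at 201, 54.7, 169 and 155 CPM and Th at 37.2, 19.5, 63.4 and 50.9 CPM. Slc17a6, the vesicular glutamate transporter of subcortical neurons, was found in 52.6% of its nuclei. Its share differed by 0.0551 points between genotypes (exact permutation p = 1). Subcluster 34 (23 nuclei; 7, 11, 4 and 1) held 19 of the acetylcholine nuclei, with Chat in 20 and Slc5a7 in 22 of its nuclei and Prima1 and Tacr1 among its leading genes. Its share differed by -0.0325 points (exact permutation p = 0.333).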
